A study of Mus musculus with 12 samples.

Results

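Primary tumours of the mouse mammary carcinoma line 168FARN were compared with those of its sister line 67NR on an Affymetrix mouse exon array, which measures each gene through many short probesets spread along it. The comparison holds the 3 arrays titled 168FARN and the 3 titled 67NR, 6 of the 12 arrays of the study, and the members were chosen by these titles alone. The other 6 arrays are tumours of the lines 4T07 and 4T1. They entered the statistical fit, where they help to estimate the spread, and served to ask which genes set 168FARN apart. All tumours were grown alike: cultured cells were injected into the fourth mammary fat pad of BALB/c mice, all female and 3 months old, 8 of which received 67NR and 11 168FARN. Tumours were excised when their mean largest dimension in a group had reached 1 to 2 cm. Neither line carried a further treatment or genetic change according to the labels. Nothing states that each array came from its own animal, so the p-values reflect how far these samples differ among themselves, and that spread may be technical. Each group is 1 cell line, so the line and its behaviour cannot be told apart.

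The 4 lines derive from a single spontaneous mammary carcinoma of a BALB/c mouse. 67NR forms primary tumours that do not spread, whereas 168FARN cells are known to reach the draining lymph nodes and to go little further. A tumour grown from such a line is a mixture of the injected carcinoma cells, which have a mouse genome, with fibroblasts, vessels, leukocytes and remnants of the fat pad and the muscle beneath it. In such bulk samples fewer cells of a type and less RNA per cell cannot be told apart.

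The level of a gene is the median log2 signal of its probesets, so a difference of 1 is a 2-fold change. Values per array are given in the order of the replicate numbers, 1 to 3. As a scale for background, 95% of 335 olfactory receptor genes, which a tumour is not known to use, lay below 5.08, and the median of all genes was 7.39. A level under 5.08 is called background here, and no fold is given against it. Array medians lay between 7.38 and 7.51 in 168FARN and between 7.34 and 7.43 in 67NR. Genes were called at an adjusted p under 0.05 by limma, a linear model that shares information on the spread among genes.

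The 3 arrays of 168FARN were not alike in skeletal muscle genes. The mean level of the genes of the fast sarcomere and of muscle calcium handling and metabolism was 5.61 on the first array, 7.10 on the second and 7.81 on the third. On the 67NR arrays it was 5.65, 5.53 and 5.91, and on the other 6 arrays it lay between 5.49 and 6.0. Array 1 of 168FARN was thus in the range of the other lines and arrays 2 and 3 were above it. Of the 10 genes lowest on array 1 against the mean of arrays 2 and 3, all are known muscle genes. Ckm, the muscle creatine kinase, stood at 6.51, 10.36 and 10.76, and the calcium pump gene Atp2a1 at 5.29, 8.79 and 9.91. Acta1, skeletal actin, stood at 6.86, 9.90 and 11.15, the light chain gene Mylpf at 4.97, 8.06 and 9.65, and the calcium store gene Casq1 at 5.07, 8.06 and 8.86. The remaining genes of the 10 were Smpx, Pvalb, Myl1, Myot and Tnnc2.

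Other genes were high on array 1 alone of the 168FARN arrays. Fmo2, a flavin monooxygenase, stood at 10.10 on array 1 against 4.89 and 5.66 on arrays 2 and 3, with 6.0, 6.78 and 5.77 in 67NR. The steroid dehydrogenase gene Hsd3b1 stood at 7.71 against 3.81 and 2.74, and Akr1cl at 6.69 against 3.44 and 3.14. Ibsp, the bone sialoprotein gene, ran from 10.88 over 4.94 to 7.43 and was the only called member of the 10 genes highest on array 1 (3.24, 4.27 and 3.98 in 67NR, adjusted p = 0.0106). The surface peptidase gene Anpep (11.40 against 8.75 and 8.91), Myo1d, Clmp, Wfdc13, Ovgp1 and 3830417A13Rik made up the rest. In all, 178 genes were higher by at least 1 on array 1 than on the mean of arrays 2 and 3, and 185 were lower by at least 1. Of these, 44 and 43 were called against 67NR. These are differences of 1 array from a pair and carry no test. For the lists described below, a count of 5 or more that moves by over 1.5 times without array 1, or with array 1 standing alone for its line, is given. The lone array is then assumed to vary like the others. Moves of that size also occurred in lists not described below. These were Hox genes, immediate early genes, cytochrome oxidase and ATP synthase, the citrate cycle, fatty acid oxidation and uptake, and amino acid transporters.

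**Figure D1:**
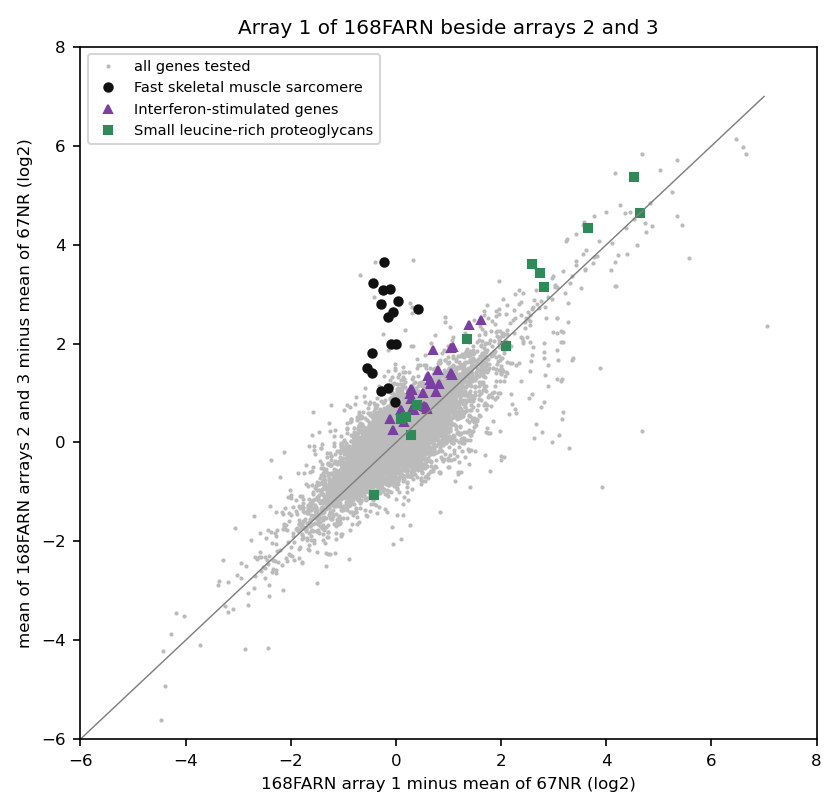
Difference of array 1 of 168FARN from the 67NR mean (horizontal axis, log2) against that of the mean of arrays 2 and 3 (vertical axis, log2), for the 15025 genes (grey) and 3 gene lists. The diagonal marks equal differences: the 17 genes of the fast sarcomere (black circles) all lie above it near 0 on the horizontal axis, the interferon-stimulated genes (violet triangles) lie mostly above it, and the small leucine-rich proteoglycans (green squares) follow it.

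Of 15025 genes tested, 3710 (24.7%) were called between the lines, 2031 of them higher in 168FARN (13.5% of genes tested) and 1679 lower (11.2%). At least 2-fold apart were 739 of the higher and 499 of the lower genes. The median change over all genes was 0.043. The shares of 13.5% and 11.2% are the scale for the list counts below. Among the calls 54.7% were higher, a share that fell to 44.0% when each array was centred on its median. Without array 1 of 168FARN 3311 genes were called, and with array 1 alone 1847, of which 1678 were among the 3710. Of the 1238 genes at least 2-fold apart, array 1 taken alone lay at least 1 beyond the 67NR mean in the same direction in 1029. The arrays of the lines did not overlap in 6127 genes (40.8% of all genes), and in 3636 of those called.

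The largest rises between levels above background were in Gpnmb, Dkk2, Dio2, Ogn, Inmt and Krt8. Gpnmb, a glycoprotein of melanosomes, lysosomes and tumour cell surfaces, stood at 5.99, 6.39 and 5.62 in 67NR and at 12.59, 12.05 and 11.89 in 168FARN (72.3-fold, log2 change 6.18, SE 0.273, adjusted p = 1.52e-08). Its family of pigment-cell genes did not follow: of 13 measured, Mitf alone rose beside it (0.71), the related factor Tfec fell by 1.70, and 10 did not pass the test. Dkk2, a secreted modulator of Wnt signalling, rose from 6.04, 5.79 and 5.63 to 10.85, 11.68 and 10.99 (41.0-fold). Dio2, which turns thyroxine into the active hormone, rose from 6.49, 6.71 and 6.67 to 11.87, 11.79 and 11.60. In Gpnmb, Dkk2 and Dio2 the lowest array of 168FARN lay more than 4 above the highest of 67NR.

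Further rises above background were Inmt, an amine methyltransferase (32.8-fold), Apod, the lipid carrier apolipoprotein D (28.5-fold), Scara5, a ferritin receptor (26.9-fold) and Pthlh, the parathyroid hormone-related peptide (24.6-fold). Angpt1, the ligand of the Tie2 receptor on endothelium, rose from 6.45, 5.83 and 5.94 to 10.43, 10.87 and 10.57 (23.4-fold, adjusted p = 2.37e-08). Inmt was the least even of them, at 5.03, 8.21 and 6.18 in 67NR, and Scara5 was higher on array 1 (11.23) than on arrays 2 and 3 (10.27 and 10.12). Arrays that do not overlap between the lines were a condition for naming these genes.

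Other genes rose from background. Sox2, a transcription factor of embryonic stem cells, stood at 3.61, 3.04 and 2.89 in 67NR and at 8.53, 8.65 and 9.15 in 168FARN (adjusted p = 2.04e-08). Dcaf8l rose from 3.00, 3.26 and 3.11 to 9.59, 9.10 and 9.41, and Lrch2 from 3.14, 3.36 and 2.86 to 7.57, 7.78 and 7.79. The guidance gene Sema3d rose to 8.71, 10.09 and 9.66. Ptgfr, the receptor of prostaglandin F, stood at 4.76, 4.40 and 5.04 in 67NR and at 9.46, 9.90 and 8.44 in 168FARN. All these genes were clearly measured in every 168FARN array and at background in every 67NR array.

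**Figure D2:**
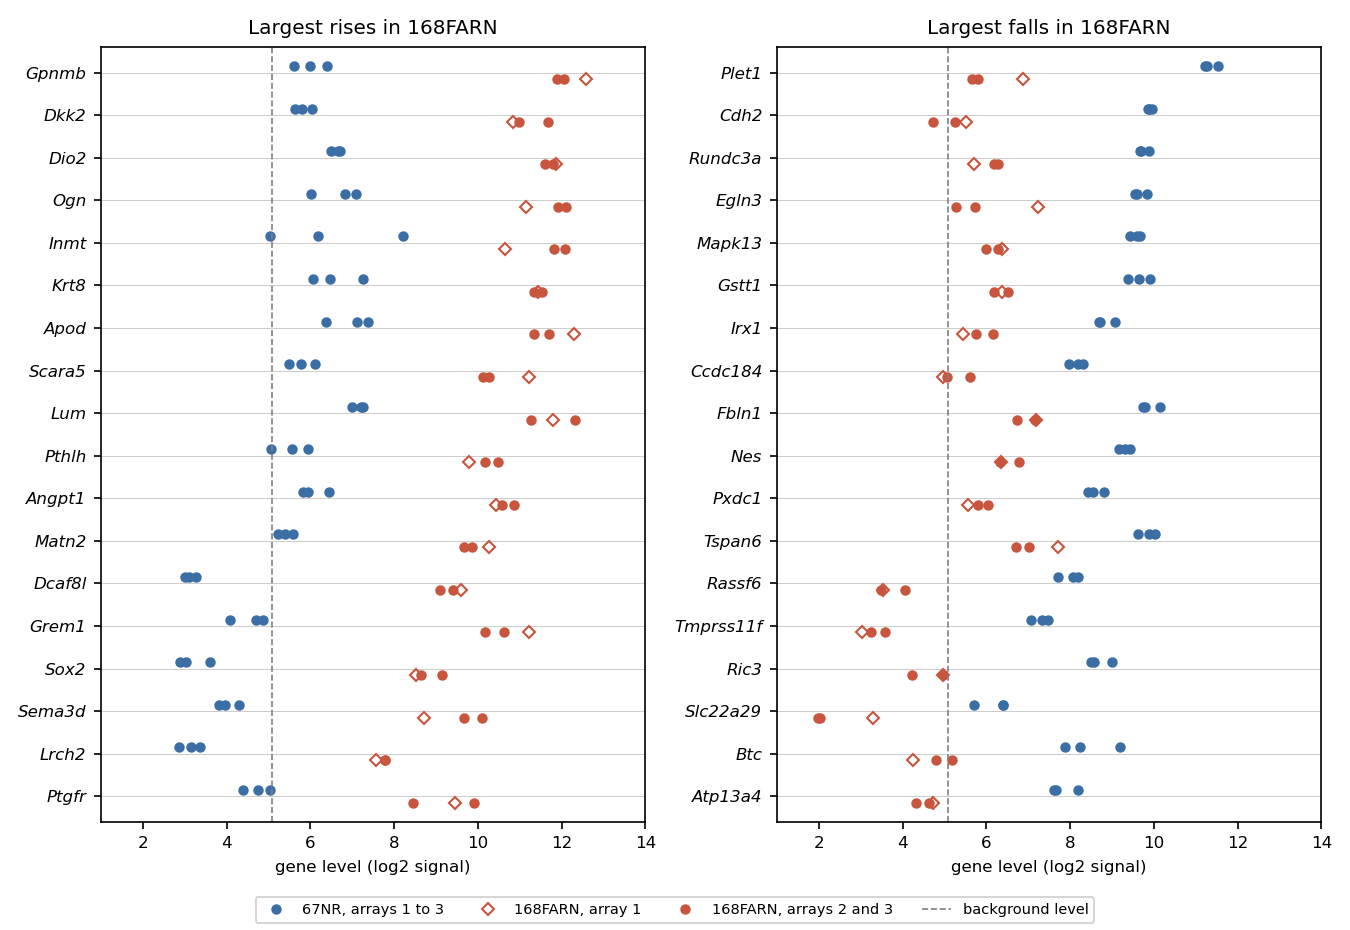
Gene levels (log2 signal, horizontal axis) on each array for the genes with the largest rises (left) and falls (right) in 168FARN, where the mean level of the first 12 genes a side was above background in both lines and the 6 at the bottom are at background in the lower line. Points are single arrays, the open diamond is array 1 of 168FARN and the dashed line is the background level of 5.08. The genes were picked among those called whose arrays do not overlap between the lines.

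The largest falls between levels above background were in Plet1, Cdh2 and Rundc3a. Plet1, an epithelial surface protein, stood at 11.28, 11.53 and 11.22 in 67NR and at 6.88, 5.80 and 5.65 in 168FARN (37.6-fold lower, log2 change -5.23, SE 0.282, adjusted p = 5.53e-08). Cdh2, N-cadherin, fell from 9.87, 9.89 and 9.96 to 5.52, 4.73 and 5.25, with array 2 at background. The intermediate filament gene Nes, nestin, fell from 9.42, 9.32 and 9.18 to 6.36, 6.32 and 6.79 (7.04-fold lower). Rundc3a (12.9-fold lower), the stress kinase gene Mapk13 (10.2-fold), the homeobox gene Irx1 (8.28-fold), Ccdc184 (7.69-fold), Pxdc1 (6.95-fold) and the tetraspanin gene Tspan6 (6.53-fold) fell with them. Egln3, an oxygen-sensing hydroxylase, fell from 9.54, 9.84 and 9.60 to 7.23, 5.73 and 5.28, so that array 1 kept more of it than the others.

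To background fell Rassf6, a Ras association protein (8.06, 8.18 and 7.71 against 3.54, 4.05 and 3.49), and Tmprss11f, a transmembrane protease (7.32, 7.48 and 7.07 against 3.02, 3.59 and 3.24). Ric3, a chaperone of acetylcholine receptors, stood at 8.56, 8.99 and 8.50 against 4.97, 4.22 and 4.96. Slc22a29 and the cation pump gene Atp13a4 (7.66, 8.19 and 7.61 against 4.73, 4.31 and 4.62) also reached background. Here too, groups without overlap were a condition for naming the genes.

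Of the genes called, 290 were higher and 131 lower in 168FARN than in each of the other 3 lines, by at least 1 on the log2 scale in each contrast. The contrasts share the arrays of 168FARN. Among the rises were embryonic genes: beside Sox2, Dppa4 stood at 8.69, 8.68 and 8.68 in 168FARN against 4.77, 4.22 and 3.47 in 67NR, and Dppa2, its partner in pluripotent cells, at 8.76, 8.99 and 8.94 against 4.35, 5.17 and 5.19. The means in 4T07 and 4T1 were at background, 3.53 and 3.71 in Dppa4 and 4.25 and 4.02 in Dppa2. The other stem-cell factors did not follow as a group, against shares of 13.5% higher and 11.2% lower over all genes. Of 19 measured, 4 rose, with Tert, the telomerase subunit, as the fourth (5.03, 5.12 and 5.05 against 6.17, 5.74 and 6.11), and 4 fell, among them Klf5 (-1.21), Tbx3 (-1.09) and Hmga2 (-0.98).

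The fetal growth factor gene Igf2 was also higher in 168FARN than in each of the other lines. It stood at 12.87, 10.90 and 11.14 against 7.72, 7.20 and 6.95 in 67NR (log2 change 4.35, SE 0.401, adjusted p = 6.53e-06), with changes of 5.43 against 4T07 and 5.74 against 4T1. Array 1 held the highest level and no array overlapped with 67NR. Of 16 genes of the insulin-like growth factor system 7 rose and 2 fell, with a median change of 0.68. Igfbp6, a binding protein that prefers the Igf2 protein, rose by 3.79, Igf1 by 1.21 and the clearance receptor Igf2r by 0.95. The binding proteins Igfbp3 (-1.25) and Igfbp7 (-1.13) fell.

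Genes of the response to type I interferon rose together, with 24 of 29 measured called higher. Interferons bind cell surface receptors and signal to a short motif in the promoters of antiviral genes. None of the 29 fell, and their median change was 0.84, against a share of 13.5% and a median of 0.043 over all genes. Zbp1, a sensor of Z-form nucleic acid, stood at 8.54, 8.13 and 8.57 in 67NR and at 10.02, 10.83 and 10.93 in 168FARN (log2 change 2.18, SE 0.252, adjusted p = 4.29e-05). Rtp4, a Golgi chaperone, rose from 7.91, 7.99 and 7.95 to 9.04, 10.29 and 9.48. Every array of 168FARN was above every array of 67NR in both, and array 1 was the lowest of its line.

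The transcription factor subunit Stat2 rose by 1.28 and Irf9, its partner, by 0.67, with Irf7, which amplifies the response, at 1.48. The antiviral effectors followed: Bst2, which tethers budding virions, rose by 1.24, the kinase gene Eif2ak2 by 1.06, Oas3 by 1.06 and Oas2 by 1.01, the GTPases Mx1 by 1.03 and Mx2 by 0.94. The RNA sensors Dhx58 (1.62), Ddx58 (0.81) and Ifih1 (0.67) rose as well. Rises were of moderate size and spread over sensors, factors and effectors alike. Among 16 interferons and their receptors and sensors, Sting1 (1.03) and Tlr3 (0.95) rose and the DNA sensor gene Cgas fell by 0.84.

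The number of calls in this group depended on the arrays used, but the rise was present on array 1 too. In 24 of the 29 genes every 168FARN array, array 1 included, lay above every array of the sister line. Over all genes 40.8% did not overlap between the lines, in either direction. Array 1 was the lowest 168FARN array in 27 of the 29 genes, and with array 1 alone 6 were called higher, none lower, with a median change of 0.59. Without array 1 the count was 25, without array 3 it was 14, and with the muscle level as a covariate it was 10. The muscle level varied mainly within 168FARN, so the covariate and array 1 alone are not separate checks, here or in other lists. Within 168FARN the mean level of the 29 genes was 8.51, 9.05 and 9.07, lowest on array 1 as the muscle level was. The 4T07 arrays had means of 8.79, 8.98 and 9.22 at muscle levels of 5.49, 5.72 and 6.0. What part the muscle level has in the result was not tested.

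To show the motif, the promoters of the 3 genes with the largest rises among those that hold it are printed, from RefSeq (GRCm38.p6), from 250 bases before to 50 bases after the gene start, in the direction of the gene. The interferon-stimulated response element, GAAA and again GAAA with any 2 bases between, was searched on both strands, and matches stand in capitals. Stat2 lies at chr10:128270248-128270547 on the plus strand, with its match on the opposite strand, Bst2 at chr8:71537423-71537722 and Oas3 at chr5:120777610-120777909, both on the minus strand. In Bst2 2 matches overlap.
Stat2: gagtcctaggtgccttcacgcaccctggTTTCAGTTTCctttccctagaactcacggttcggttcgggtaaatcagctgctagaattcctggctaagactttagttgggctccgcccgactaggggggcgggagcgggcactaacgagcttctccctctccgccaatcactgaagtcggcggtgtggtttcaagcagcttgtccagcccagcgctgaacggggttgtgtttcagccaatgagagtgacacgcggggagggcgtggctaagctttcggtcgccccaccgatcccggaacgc
Bst2: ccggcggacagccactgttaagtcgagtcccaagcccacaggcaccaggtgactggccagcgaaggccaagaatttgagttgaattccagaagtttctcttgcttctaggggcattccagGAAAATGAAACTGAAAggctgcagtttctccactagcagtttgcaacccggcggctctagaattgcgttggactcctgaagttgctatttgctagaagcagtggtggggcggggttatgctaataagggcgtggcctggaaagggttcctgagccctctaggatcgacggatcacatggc
Oas3: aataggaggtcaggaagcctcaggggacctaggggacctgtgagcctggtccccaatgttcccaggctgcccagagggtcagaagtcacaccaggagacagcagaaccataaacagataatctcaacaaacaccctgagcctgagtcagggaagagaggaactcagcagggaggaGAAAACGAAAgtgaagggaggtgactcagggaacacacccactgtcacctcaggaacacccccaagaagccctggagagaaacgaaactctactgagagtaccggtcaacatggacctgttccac
Of the 29 genes, 21 had an entry and 8 of these held the motif in this window (38.1%), against 451 of the 12017 genes tested that had an entry (3.75%). Among the 8, 7 rose (also Eif2ak2, Ddx58, Ifih1 and Rsad2), and Trim30a, at a change of 0.46, did not pass the test. Of all 21 with an entry 17 rose, among them Ifi44 (2.04) and Irf7 (1.48), which held no match. A match is a description of the letters, and none was sought beyond this window.

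**Figure D3:**
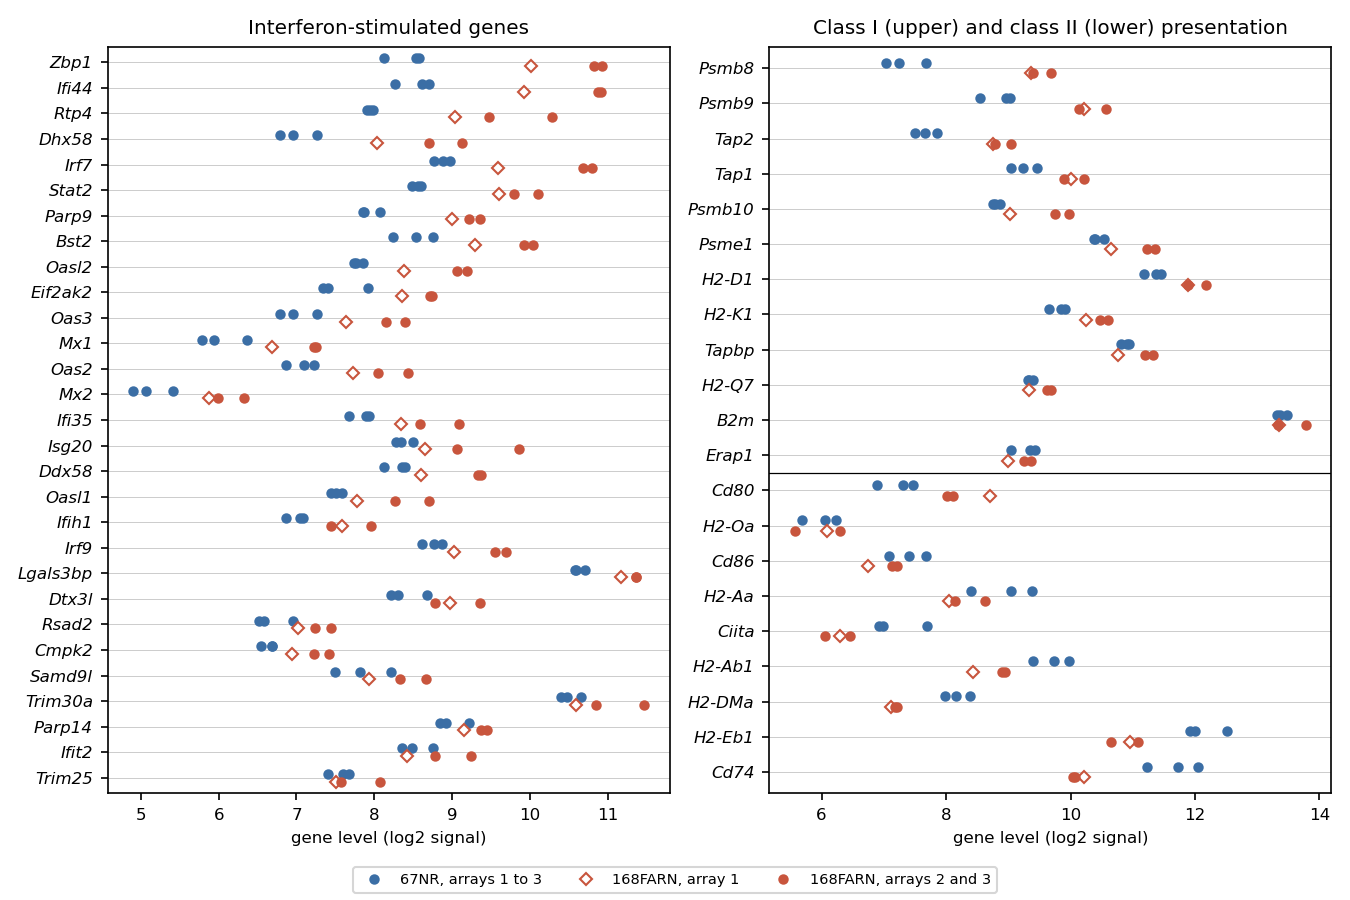
Gene levels (log2 signal, horizontal axis) on each array for the 29 interferon-stimulated genes (left) and for class I and class II antigen presentation (right, above and below the line). Points are single arrays and the open diamond is array 1 of 168FARN; most interferon-stimulated genes rose with array 1 between 67NR and arrays 2 and 3, class I genes rose to the right and most class II genes lay to the left.

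Antigen presentation split by class. Class I molecules show peptides from inside any cell, while class II belongs mainly to antigen-presenting cells. Of 12 class I genes 8 rose and none fell (3 rose with array 1 alone). The immunoproteasome gene Psmb8 stood at 7.68, 7.03 and 7.25 in 67NR and at 9.36, 9.69 and 9.40 in 168FARN, and the peptide transporter gene Tap2 at 7.85, 7.50 and 7.67 against 8.76, 8.78 and 9.04. The heavy chains H2-D1 and H2-K1 rose by 0.64 each. Of 9 class II genes 5 fell and Cd80, a costimulatory ligand, rose (1.05). H2-DMa, which loads the peptide, fell from 8.39, 8.16 and 7.99 to 7.12, 7.22 and 7.18, and Ciita, the master factor of the class, by 0.94. The fall of 5 was 4 with array 1 alone. The interferon-gamma induced genes were mixed, with 5 of 19 higher, led by the GTPase gene Igtp (1.09), and Ciita and the feedback gene Socs1 (-1.0) lower. With array 1 alone or with the muscle covariate none of their members was called higher, and the median change of 0.09 was -0.06 with array 1 alone. Their 5 rises were 2 without array 2 or 3 of 67NR or array 2 of 168FARN, and 3 without array 3 of 168FARN.

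The small leucine-rich proteoglycans, which coat and space collagen fibrils, rose as a family. Of 13 measured 9 rose and 1 fell, with a median change of 2.01. Aspn, asporin, stood at 7.93, 7.42 and 6.96 in 67NR and at 11.09, 12.04 and 11.51 in 168FARN (log2 change 4.11, SE 0.441, adjusted p = 2.34e-05). Bgn, biglycan, rose by 2.01, beside Ogn, Lum and Dcn. From background rose Ecm2, Chad and Kera, keratocan (4.92, 4.0 and 4.55 against 7.23, 8.28 and 7.53). Omd, osteomodulin, also rose from background (3.66, 3.19 and 2.80) to 5.79, 6.53 and 7.12. Prelp fell by 0.85, most on array 2 (6.40 against 7.68 and 7.66). With array 1 alone 8 rose, with a median change of 2.10, and 7 of the 13 were higher than in each of the other lines by at least 1.

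Other matrix genes moved in part. Of 22 matricellular proteins 10 rose and 1 fell. Tnn, tenascin N, rose from 5.64, 5.30 and 5.23 to 9.97, 10.07 and 8.70, Matn2, matrilin 2, was 23.2-fold higher Thbs2 rose by 4.42 and Thbs3 by 2.22, while Tnc, tenascin C, fell by 0.94. Of 11 fibrillar collagens only Col3a1 (1.73) and Col5a2 (1.55) were called, both higher. Elastic fibre genes went both ways, 6 of 18 higher and 4 lower. Mfap4 stood at 6.25, 7.12 and 6.72 against 9.45, 9.67 and 9.43 in 168FARN. Efemp2, fibulin 4, fell from 10.37, 10.27 and 10.26 to 7.45, 7.64 and 7.95 (log2 change -2.62), and Fbln2 by 1.25. Genes of the basement membrane fell in 4 and rose in 3 of 14, and without array 1 of 168FARN 4 fell and 1 rose. The nidogens Nid2 (-1.50) and Nid1 (-1.36), Lama4 (-0.85) and the perlecan gene Hspg2 (-0.74) were lower. Lama2, laminin alpha 2, was higher at 9.15, 7.40 and 7.34 against 6.16, 6.07 and 5.99.

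Matrix proteases also went both ways, against 13.5% of all genes called higher and 11.2% lower. Of 23 matrix metalloproteinases and their inhibitors 4 rose and 5 fell, with 1 fall with array 1 alone and 3 with the muscle covariate. The gelatinase gene Mmp2 rose by 2.70, Mmp11 by 1.85 and Mmp19 by 1.65, and Mmp14, a membrane-bound collagenase, from 9.22, 9.15 and 8.94 to 10.30, 10.62 and 10.27. The inhibitor gene Timp3 fell from 8.96, 8.65 and 8.85 to 7.98, 6.82 and 7.52, and Timp1 by 0.69. In the plasminogen system the activator gene Plat rose by 1.74 and the receptor genes Plaur (-0.52), Anxa2 (-0.63) and S100a10 (-0.61) fell.

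Of 20 fibroblast markers 12 rose and 2 fell, with a median change of 0.94, and 10 rose with array 1 alone. Beside the matrix genes above, the antiangiogenic serpin gene Serpinf1 stood at 8.13, 7.89 and 8.11 in 67NR and at 10.29, 10.71 and 10.72 in 168FARN, and Pdgfra, a growth factor receptor of fibroblasts, at 9.58, 9.19 and 9.43 against 11.05, 10.87 and 10.62. Both were separated without overlap. Whether fibroblasts or carcinoma cells of 168FARN carry these genes was not measured in these bulk samples.

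Some genes of secreted signals and their antagonists rose. Over all genes 13.5% were called higher and 11.2% lower, and the counts of bone morphogenetic protein and Wnt ligands were near the former. Among bone morphogenetic protein genes, the antagonist Grem1 rose from background (4.70, 4.09 and 4.88) to 11.21, 10.62 and 10.16. The activin binder Fst rose from 4.80, 5.13 and 4.95 to 7.38, 6.41 and 7.61, the ligand gene Bmp7 by 1.36 and Inhba by 0.74. Of 10 antagonists 3 rose, of 12 ligands 2, and no member of either list fell. Among the receptors and targets 3 of 17 rose, with the receptor gene Bmpr1a at 0.76, and 4 fell, with Msx2 (-1.41), Acvr2b (-0.97), Smad5 (-0.80) and Smad1 (-0.56). Of the transforming growth factor beta genes Ltbp4 rose by 1.73 and the receptor gene Tgfbr2 (-0.58), the messenger Smad3 (-0.98) and Ltbp3 (-1.03) fell.

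Among Wnt genes 3 of 19 ligands rose and 1 fell, with a median change of 0.08. Wnt7b stood at 7.32, 7.43 and 7.06 in 67NR and at 8.48, 8.67 and 8.64 in 168FARN, and Wnt9a rose by 1.02. Of 14 antagonists 4 rose, with the receptor-internalizing Kremen1 (1.27) and Dkk3 (1.63) beside Dkk2, and the Wnt deacylase gene Notum fell from 6.83, 7.29 and 6.38 to 4.98, 5.29 and 4.80. Axin2, a direct target of beta-catenin, rose from 5.70, 5.80 and 5.83 to 7.44, 7.02 and 7.30 (log2 change 1.48, SE 0.141, adjusted p = 8.59e-06). The receptors of non-canonical Wnts fell, Ror1 by 2.13 and Ror2 by 1.22, as did Fzd1 by 1.54, while Lrp6 rose by 0.72 and its relative Lrp5 fell by 0.82.

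Fibroblast growth factor genes rose in 5 of 20 and fell in 1. Fgf10, a ligand of epithelial receptors, stood at 6.03, 6.57 and 6.43 in 67NR and at 9.25, 9.40 and 9.17 in 168FARN (log2 change 2.93, SE 0.157, adjusted p = 5.53e-08), and Fgf7, with the same receptor, at 6.05, 4.60 and 5.66 against 9.66, 10.01 and 8.46. Fgf1 rose by 1.59, but array 3 (6.36) overlapped with 67NR (6.15, 6.67 and 6.23). The count of 5 was 2 without array 1 of either line and 3 without array 3 of either line. Fgf10 was higher in 168FARN than in 4T07 by 3.98, and its mean in 4T1 was at background (4.78).

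Of 11 receptors and ligands of the epidermal growth factor family 3 ligands were lower, none was higher and 8 did not pass the test, with a median change of -0.16. Ereg, epiregulin, stood at 9.33, 9.71 and 9.20 in 67NR and at 6.99, 7.17 and 7.07 in 168FARN (log2 change -2.33), Hbegf at 10.89, 11.56 and 10.89 against 8.53, 9.42 and 9.13, and Btc, betacellulin, fell from 8.23, 9.19 and 7.89 to 4.25, 4.80 and 5.17. The arrays did not overlap in any of the 3. With array 1 alone 4 were lower. Genes induced by the MAP kinase pathway as its feedback fell in 6 and rose in 3 of 19: the phosphatase genes Dusp4 (8.92, 9.01 and 8.67 against 6.37, 5.76 and 7.33) and Dusp9 (-1.99), the factor Etv4 (-1.73) and Spry2 (-1.12) were lower, and Spry4 was higher (1.00).

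Among vascular growth factors the lymphatic ligands rose. Vegfc stood at 5.65, 5.22 and 5.03 in 67NR and at 7.72, 8.27 and 8.38 in 168FARN (log2 change 2.83, SE 0.219, adjusted p = 1.33e-06), and Vegfd at 8.64, 8.55 and 8.26 against 10.47, 10.31 and 9.76. Against 4T07 the change was -0.28 (adjusted p = 0.382) in Vegfc and 2.70 in Vegfd, which was higher in 168FARN than in each other line. Their receptor gene Flt4 fell by 0.78, as did Lyve1, a marker of lymphatic endothelium and of some macrophages, from 9.36, 10.52 and 9.73 to 8.54, 7.09 and 7.64. Of 8 lymphatic markers measured 2 rose, Sema3d and the chemokine scavenger gene Ackr4 (4.62, 4.59 and 4.51 against 6.23, 6.47 and 5.73), and 2 fell.

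Blood endothelial markers fell in 10 of 21 and rose in none, with a median change of -0.62. Clec14a, an endothelial lectin, stood at 8.47, 8.40 and 8.39 in 67NR and at 7.17, 6.93 and 7.09 in 168FARN (log2 change -1.36, adjusted p = 0.000555). Robo4 fell by 0.91, the receptor gene Kdr by 0.81, the factor Erg by 0.74 and Emcn by 0.71. In 18 of the 21 the 168FARN arrays all lay below those of 67NR, where 40.8% of all genes did not overlap in either direction. With array 1 alone 2 were called lower, at the same median change of -0.62, with the muscle level as a covariate 5, and with arrays centred on their medians 17. Of 15 markers of pericytes, which wrap small vessels, and smooth muscle 3 rose and 6 fell, with a median change of 0.03. With array 1 alone 5 rose and 4 fell (median 0.71), and without array 1 1 rose and 6 fell (median -0.34). Kcnj8 fell from 8.81, 8.84 and 8.63 to 7.22, 7.33 and 6.94, its partner channel Abcc9 by 1.35 and Rgs5 by 1.05, while Pdgfrb rose by 0.95 and the muscle filament gene Des by 1.11.

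Genes of the Notch pathway, in which ligands on a cell activate receptors on its neighbour, fell in 9 of 18 and rose in none. Notch1 stood at 9.35, 9.43 and 9.45 in 67NR and at 7.59, 7.02 and 7.56 in 168FARN (log2 change -2.02, SE 0.170, adjusted p = 2.82e-06). The endothelial members Dll4 (-1.23) and Notch4 (-0.95) and the pericyte receptor Notch3 (-0.95) fell, with the glycosyltransferases Lfng (-0.87) and Mfng (-0.75), the target Hes1 (-0.80), Dll1 (-0.60) and Notch2 (-0.53). The median change was -0.56 and, with array 1 alone, -0.54, although the count was then 3, and 4 with the muscle level as a covariate. Notch1 was also lower than in 4T07 (-1.86) and 4T1 (-1.42). The fall in vessel markers moves with that of Dll4 and Notch4, and its part in the result was not tested.

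Guidance genes moved both ways, against 13.5% of all genes called higher and 11.2% lower. Of 26 semaphorins and plexins 6 rose and 6 fell. Sema3a rose from 9.10, 9.25 and 9.15 to 11.33, 11.38 and 11.80, and Sema6a from 6.54, 6.45 and 6.46 to 8.61, 9.09 and 9.43, whereas Sema6d fell from 8.99, 8.89 and 8.92 to 7.38, 6.78 and 7.12. The 6 falls were 2 with array 1 of 168FARN alone, and 3 with the muscle covariate or without array 1 of 67NR. Their receptor gene Nrp1 fell by 1.36. Of 31 ephrins, slits and netrins 5 rose, led by Ntn1, netrin 1 (6.46, 5.82 and 6.59 against 9.25, 9.80 and 9.43), and 9 fell, among them the receptor gene Epha2 (-1.36), with 5 falls with array 1 alone or with the muscle covariate.

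Lower calls among leukocyte markers were mainly those of macrophages, T cells and natural killer cells, against 11.2% of all genes called lower. Of 23 macrophage markers 10 fell and Clec4d rose (0.92), with a median change of -0.64, and 7 fell with array 1 alone. Vsig4, a complement receptor of resident macrophages, fell from 8.36, 8.79 and 8.08 to 6.43, 6.16 and 6.09, the receptor gene Csf1r by 0.97 and Siglec1 by 0.82. T and natural killer cell markers fell in 7 of 23, with the granzyme gene Gzma at -1.89, Cd8a at -1.68, Cd4 at -0.85 and Cd3e at -0.81, and in 4 with array 1 of 168FARN alone or without array 1 of 67NR. Neutrophil markers rose in 2 of 15, a share near the 13.5% of all genes: the decoy receptor gene Il1r2 stood at 5.51, 4.77 and 4.74 against 7.51, 7.55 and 7.74, and Padi4 at 5.62, 5.67 and 5.63 against 7.85, 6.32 and 6.49. Of 13 B cell, 17 adipocyte and 6 red blood cell markers none was called.

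Chemokines and interleukins had rises and falls in like number, 4 and 5 of 33 and 7 and 7 of 34. Over all genes 13.5% were called higher and 11.2% lower, and the chemokine counts were near these shares. Ccl24, an attractant of eosinophils, fell from 8.09, 7.83 and 7.35 to 6.10, 5.82 and 5.55. Cxcl5, an attractant of neutrophils, stood at 7.39, 6.85 and 7.09 against 8.62, 9.0 and 8.04, and Ccl7, which draws monocytes, rose by 1.00. Il16 rose from 7.37, 7.17 and 6.93 to 10.01, 9.73 and 9.60, and the lymphoid growth factor gene Il7 from 7.24, 6.79 and 7.27 to 8.77, 9.38 and 8.63. Both exceeded 4T07 and 4T1 as well, Il16 by 3.51 and 3.34 and Il7 by 2.19 and 2.68. Cxcl12, a chemokine of stromal cells, fell by 2.20. Among the falling interleukins were Il1a (6.10, 5.58 and 5.20 against 3.26, 3.88 and 3.76), Il18 (-1.26), Lif (-1.07) and Csf1 (-0.73), the growth factor of macrophages.

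Of 23 complement genes 3 rose and 6 fell. Masp1, a protease that starts the lectin pathway, stood at 7.73, 7.43 and 7.56 in 67NR and at 11.95, 12.04 and 11.79 in 168FARN (log2 change 4.36, SE 0.202, adjusted p = 2.04e-08). The fluid-phase inhibitor gene Clu, clusterin, rose from 8.41, 8.21 and 7.78 to 11.91, 12.04 and 11.75, and the protease gene C1s1 by 2.77. C4b fell by 1.94, and C6, part of the lytic pore, from 7.77, 7.94 and 7.63 to 4.97, 4.19 and 4.81. The 3 rises and the fall in C6 were each present on array 1.

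Keratins, integrins and cadherins each held a few large changes. Of 6 simple-epithelium keratins Krt8 and Krt19 were called, and of 13 stratified-epithelium keratins none. Krt8 stood at 6.47, 6.07 and 7.26 in 67NR and at 11.43, 11.34 and 11.53 in 168FARN, and differed from 4T07 by -0.21 (adjusted p = 0.651) and from 4T1 by -0.63 (adjusted p = 0.118). The partner chains of a laminin receptor integrin went opposite ways. Itgb4 rose from 6.50, 6.57 and 6.44 to 9.04, 8.72 and 9.20, and Itga6 fell from 10.20, 10.28 and 10.29 to 8.44, 8.31 and 8.86. Of 18 cadherins Cdh2, Cdh5 (-1.31) and Cdh13 (-0.81) fell, and Cdh26 rose, from background on every 67NR array and with array 1 of 168FARN still there (4.55). Cdh2 did not differ from 4T07 or 4T1 past the threshold (-0.46 and -0.32). Of 20 factors of the epithelial-mesenchymal transition 6 rose and 3 fell, with 3 rises with array 1 alone or with the muscle covariate. Among mesenchymal factors Prrx2 rose from 6.26, 6.44 and 6.52 to 8.33, 8.69 and 8.43, Prrx1 by 0.85 and Twist2 by 0.79, while Zeb2 fell by 0.76. The epithelial factors went both ways: Grhl2 fell from 5.85, 6.61 and 5.70 to 4.43, 4.30 and 3.85, and Grhl1 stood at 4.32, 4.57 and 4.57 against 5.52, 5.47 and 4.98 (adjusted p = 0.00597). The estrogen receptor gene Esr1 rose from 7.36, 7.73 and 7.53 to 8.56, 8.61 and 8.63.

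Genes of DNA replication and mitosis were lower. Of 33 genes of the G1 and S phases 11 fell and 2 rose, and of 34 mitosis genes 12 fell and none rose, with median changes of -0.39 and -0.47. The replicative polymerase gene Pola1 stood at 9.08, 8.99 and 9.05 in 67NR and at 7.42, 7.51 and 7.92 in 168FARN (log2 change -1.42), and the motor gene Kif4 at 8.79, 9.15 and 8.95 against 7.40, 7.40 and 7.88. The inhibitor gene Cdkn2a fell by 1.69, and Myc from 10.98, 11.32 and 11.28 to 10.19, 10.20 and 10.44. The D-type cyclins exchanged: Ccnd2 rose from 10.20, 10.38 and 10.15 to 11.90, 12.07 and 11.99, and Ccnd1 fell by 0.88. Array 1 was the lowest 168FARN array in 31 of the 34 mitosis genes. Their count of 12 was 15 with array 1 alone, 7 without array 1, 7 without array 2 or array 3 of 67NR, 20 without array 3 of 168FARN, and 19 with arrays centred on their medians or quantile normalized. With the muscle level as a covariate it was 21.

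**Figure D4:**
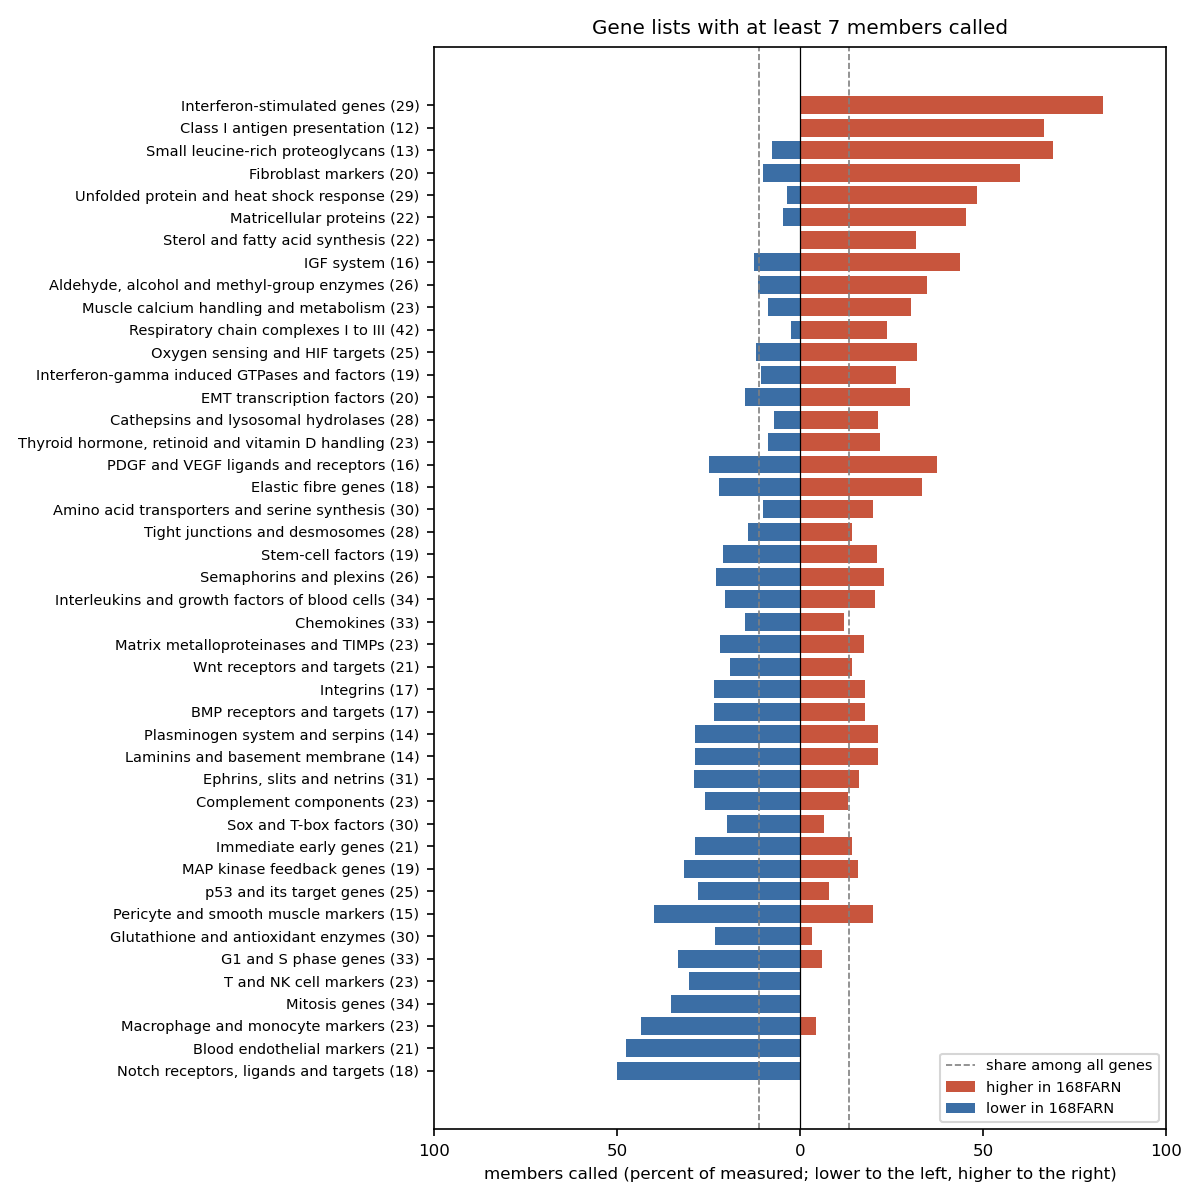
Share of the measured members of each gene list called higher (red, right) or lower (blue, left) in 168FARN, in percent, for lists with at least 7 members called; the number measured stands beside each name. The dashed lines mark the shares over all genes, 13.5% higher and 11.2% lower: interferon-stimulated genes and class I presentation stand at the upper end, Notch genes and endothelial markers at the lower.

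Genes of protein folding in the endoplasmic reticulum rose. Unfolded protein there activates the factors Atf6, Xbp1 and Atf4, which raise chaperones. Of 29 genes of the unfolded protein and heat shock responses 14 rose and Hsp90ab1 fell (-0.49), with a median change of 0.38. Dnajb9, a co-chaperone, stood at 8.49, 8.36 and 8.10 in 67NR and at 10.23, 10.92 and 11.01 in 168FARN (log2 change 2.40, SE 0.248, adjusted p = 1.65e-05), and Dnajb11 at 9.44, 9.17 and 9.11 against 10.63, 10.49 and 10.61. The disulfide isomerase genes Pdia4 (0.94) and Pdia6 (0.93), the main chaperone gene Hspa5 (0.73), Creld2 (0.68) and the sensor gene Ern1 (0.97) rose too. Dnajb11 was higher than in 4T07 (1.35) and 4T1 (1.58). With array 1 alone 5 of the 29 rose, with a median change of 0.43, without array 3 9 rose, and with the muscle level as a covariate 8.

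For this group too the 3 promoters with the largest rises among those holding the motif are printed. The endoplasmic reticulum stress response element, CCAAT and CCACG with any 9 bases between, was searched on both strands of the same windows, and matches stand in capitals. Pdia6 lies at chr12:17266339-17266638, Hspa5 at chr2:34771840-34772139 and Creld2 at chr15:88819396-88819695, all on the plus strand, with the match of Creld2 on the opposite strand.
Pdia6: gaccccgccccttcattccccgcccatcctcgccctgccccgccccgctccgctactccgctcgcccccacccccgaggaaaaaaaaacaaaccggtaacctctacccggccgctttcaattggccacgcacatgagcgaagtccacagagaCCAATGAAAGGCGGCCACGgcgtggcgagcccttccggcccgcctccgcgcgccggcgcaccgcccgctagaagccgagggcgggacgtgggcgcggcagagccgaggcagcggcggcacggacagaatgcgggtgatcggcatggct
Hspa5: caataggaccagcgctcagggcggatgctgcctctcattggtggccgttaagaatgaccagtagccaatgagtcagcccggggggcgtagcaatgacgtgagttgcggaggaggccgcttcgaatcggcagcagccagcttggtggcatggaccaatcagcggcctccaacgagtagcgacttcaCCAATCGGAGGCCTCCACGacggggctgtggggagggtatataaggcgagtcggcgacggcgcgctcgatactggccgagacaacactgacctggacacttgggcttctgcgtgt
Creld2: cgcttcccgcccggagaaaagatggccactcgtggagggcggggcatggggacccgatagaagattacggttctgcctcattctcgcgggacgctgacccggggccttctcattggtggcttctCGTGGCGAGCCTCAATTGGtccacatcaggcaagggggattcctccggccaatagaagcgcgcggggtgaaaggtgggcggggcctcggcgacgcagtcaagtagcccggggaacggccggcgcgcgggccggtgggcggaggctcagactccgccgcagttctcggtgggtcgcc
Of 24 members with an entry 6 held the motif, against 17 of the 12017 genes tested that had an entry (0.141%). Of the 6, Calr (0.56) rose with the 3 printed, and Canx (0.34) and Hsp90b1 (0.28) did not pass the test. Of all 24 with an entry 13 rose, among them Dnajb9 (2.40) and Dnajb11 (1.34), which held no match.

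Metabolic genes moved in small groups. Of 22 genes of sterol and fatty acid synthesis 7 rose and none fell, 2 of them with array 1 alone; Scd2, a desaturase, rose from 10.34, 10.16 and 10.46 to 11.96, 11.88 and 11.97, and Cyp51 by 1.25. Of 30 glutathione and antioxidant genes 7 fell and 1 rose. Gstt1, a glutathione transferase, stood at 9.64, 9.91 and 9.39 in 67NR and at 6.38, 6.51 and 6.19 in 168FARN (9.75-fold lower), and Gstm1 at 10.96, 10.83 and 10.73 against 9.38, 9.22 and 9.10. Respiratory chain genes of complexes I to III rose in 10 of 42, led by Ndufc2 (1.68), and 4 rose with array 1 alone. Of 25 genes of oxygen sensing 8 rose, with the carbonic anhydrase gene Car9 at 8.86, 7.79 and 6.67 against 6.52, 6.32 and 6.14, and 3 fell; 4 rose without array 3 of 67NR and 5 without array 1 of 168FARN. Ldhb, which favours lactate use, rose from 6.22, 6.58 and 6.50 to 8.47, 8.57 and 8.61.

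Genes that handle thyroid hormone, retinoids and vitamin D rose in 5 of 23 and fell in 2. Beside Dio2, the receptor gene Thrb rose from 4.68, 4.79 and 5.26 to 6.93, 6.30 and 6.48, the retinol dehydrogenase gene Rdh10 rose by 2.40, the retinoic acid binder Crabp1 by 2.42 and Cyp26b1, which degrades retinoic acid, by 0.96. The nuclear receptor genes Vdr (-1.13) and Rxra (-0.86) fell. Of 25 genes of p53 and its targets 7 fell, led by Eda2r (-1.59) and Sesn3 (-1.09), and 2 rose. The 7 falls were 2 with array 1 alone, 3 with the muscle covariate and 4 without array 2 of 168FARN.

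Muscle genes made lists whose rises rest on arrays 2 and 3. Of 17 genes of the fast sarcomere 4 rose, Pvalb, Tnni2, Tnnc2 and Myoz1, with a median change of 1.64. Without array 1 all 17 were called higher, and with array 1 alone none was called, with a median of -0.16. Of 23 genes of muscle calcium handling and metabolism 7 rose and 2 fell, against 16 and 1 without array 1 and 0 and 1 with array 1 alone. The 7 rises were 2 or 3 without array 1 or 2 of 67NR, or array 2 or 3 of 168FARN. Acetylcholine receptor genes of immature muscle behaved otherwise: Chrna1 stood at 8.11, 8.81 and 7.95 in 168FARN against 6.62, 7.05 and 6.85 in 67NR, without overlap and on array 1 too.

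Single probesets were then set against the rest of their gene, which shows where parts of a transcript changed unevenly. A relative change is that of a probeset minus that of the other probesets of its gene, on the log2 scale. Of 109801 probesets in 7345 genes, 803 (0.731%) were called by limma's diffSplice with a relative change of 1 or more and an adjusted p under 0.05, 386 of them higher and 417 lower. Since diffSplice pools the spread over a gene's probesets, the text names only those also called by a splicing index, which tests each probeset minus the median of its gene on each array. These were 304 probesets (0.277%) in 174 genes, 140 higher and 164 lower. The simulated data had independent noise and no gene that changed as a whole. In them the diffSplice rule called 326 unchanged probesets, the splicing index 4 and both tests together 3. A part of the 803 may thus be false calls. Probesets that fail to follow a changing gene were not simulated, so these numbers do not cover such calls among the 304. Without array 1 of 168FARN 208 were called by both, 175 of them among the 304, and with array 1 alone 102. Probesets are named by the number of the array design, and which exon each covers was not analysed here.

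In genes that themselves changed, many such probesets stood still while the gene moved. Of the 256 in called genes, 128 in 91 genes moved by less than 0.5 in their own level. In Grem1 probeset 4781973 stood at 7.80, 8.34 and 8.53 in 67NR and at 8.28, 8.51 and 7.76 in 168FARN, while the gene rose from background. In Scara3, a scavenger receptor gene that rose by 4.01, probeset 4341107 stood at 9.56, 9.76 and 9.60 against 9.64, 9.83 and 9.49. Likewise Igf2 probeset 4506045 stood at 7.89, 7.83 and 7.64 against 7.90, 8.12 and 8.14, and Nptx1 probeset 5190004 at 11.47, 11.26 and 11.36 against 11.71, 11.29 and 11.10. In the falling genes Irx1 and Plet1, probesets 4587868 (8.28, 8.21 and 8.72 against 8.25, 8.61 and 8.28) and 4655579 (7.30, 7.75 and 7.73 against 7.18, 6.91 and 6.83) kept most of their level. Such values are those of probesets that did not follow their gene, and whether they report on that gene was not tested.

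The integrin gene Itgb4 held the most, 9 of 42 probesets tested, 7 lower and 2 higher relative to the gene. Probeset 4676589 rose from 4.74, 5.59 and 5.70 to 9.55, 8.91 and 9.51, whereas probeset 4680266 stood at 6.28, 6.53 and 6.50 against 6.47, 6.49 and 6.37. Coro6, a coronin gene that rose by 1.80, held a probeset, 5244419, that rose from 2.95, 2.63 and 4.11 to 8.55, 7.45 and 8.05. In 58 of the 256 the probeset moved with its gene and by more than it.

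In 27 genes a probeset was called by both tests although the gene was not. Tcf3, which encodes E12 and E47, held 8 of 39 tested, 6 higher and 2 lower, in a gene that changed by -0.38 (adjusted p = 0.11). Its probeset 4897778 stood at 7.13, 7.12 and 6.65 in 67NR and at 8.36, 8.27 and 7.82 in 168FARN, and probeset 5280845 at 10.49, 10.43 and 10.51 against 8.66, 9.13 and 9.19. Parts of the gene thus moved in opposite directions on every array. In Ampd3, an AMP deaminase gene (0.11, adjusted p = 0.711), probeset 5280288 rose from 4.83, 5.55 and 4.73 to 7.68, 7.13 and 7.01. In Fn1, fibronectin (0.34, adjusted p = 0.073), probeset 5201971 stood at 10.12, 10.28 and 10.12 against 12.45, 11.50 and 12.45, with relative means of -1.30 in 168FARN, -2.82 in 4T07 and -3.42 in 4T1.

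Further changes of this kind were higher probesets in Gcnt2, which branches glycans (7.91, 7.43 and 7.40 against 10.41, 9.97 and 9.13), in the receptor gene Ppard (relative change 1.89), the kinase gene Prkci (1.82), and, from levels near background, in Deaf1 and Tns4. Lower were probesets in the fatty acid transporter gene Slc27a1 (7.85, 8.34 and 8.29 against 6.10, 4.75 and 6.68, relative change -2.41), Aebp2 (6.86, 6.88 and 6.29 against 4.43, 5.02 and 5.77), the prostaglandin transporter gene Slco2a1 (-1.71), the helicase gene Skiv2l (-1.54), Pinx1 (-1.29) and Slc16a13 (6.54, 6.35 and 5.84 against 4.46, 5.06 and 5.26). Col7a1, a collagen of anchoring fibrils, held 6 among 115 tested. The only lower one, 4892891, stood at 6.40, 6.38 and 6.89 against 5.31, 5.20 and 4.31, and probeset 4718782 was higher by a relative change of 1.90. In all of them the relative levels of the arrays did not overlap between the lines, as in each of the 304.

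**Figure D5:**
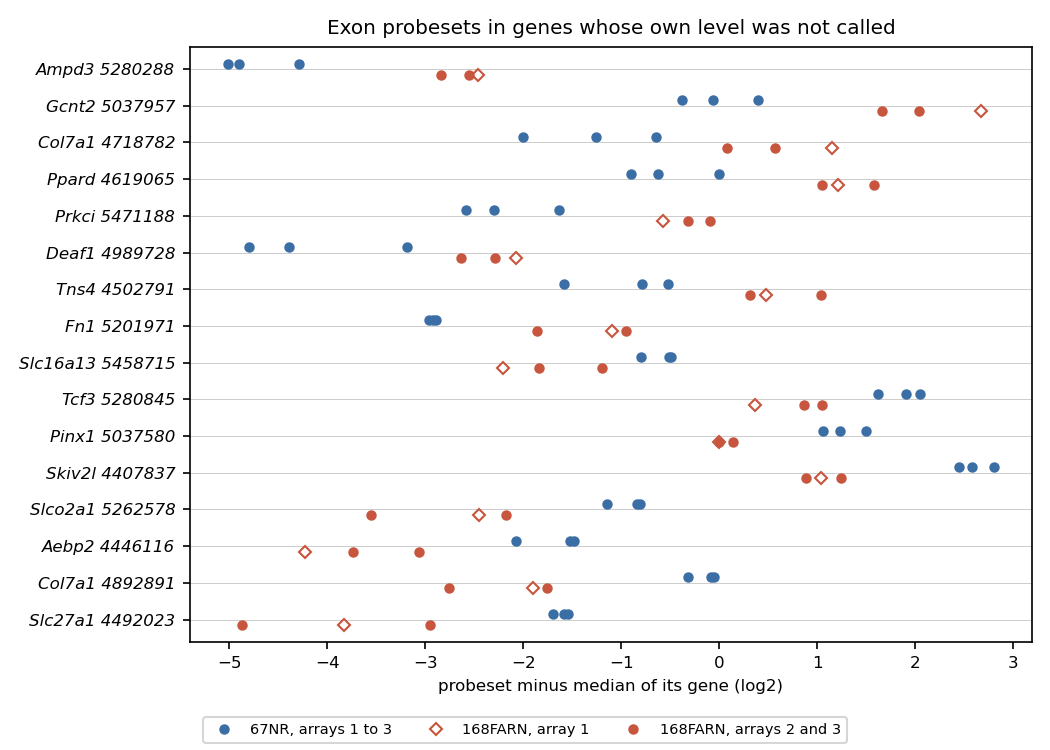
Level of single exon probesets relative to the median of their gene (log2, horizontal axis) on each array, for 16 probesets called by both tests in genes whose own level was not called, at most 1 a gene in each direction. Points are single arrays and the open diamond is array 1 of 168FARN. The 8 upper probesets were higher and the 8 lower ones lower in 168FARN. Relative levels without overlap between the lines were a condition for picking them, so array 1 lies on the side of arrays 2 and 3.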

How the data were processed

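The authors' deposited table holds a log2 signal for each probeset on each of 12 arrays. That the scale is log2 was read from the range of the values, and the background correction and normalization are not given in the sources used here. Probesets were named through the platform annotation. A gene's level was the median over its probesets, for genes with at least 3. Group means were fitted over all 12 arrays with limma 3.58.1 (lmFit, eBayes; R 4.3.3), and p-values were adjusted by Benjamini and Hochberg over all genes or probesets. Exon probesets were tested with diffSplice and with a splicing index, and called where the relative change reached 1 and the adjusted p was under 0.05. The procedures were tested on simulated data with independent noise. Of 100 genes changed by 1 on the log2 scale 66 were called, and of 100 changed by 2, 97. Of 200 probesets changed by 2, diffSplice called 197 and both tests together 173. Unchanged but called were 9 genes, 326 probesets by diffSplice and 3 by both tests. Probesets that fail to follow a changing gene were not part of the simulation. Array values carry no counts, so the number of arrays limits the precision.

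The genes named are the 12 largest rises and falls with both lines above background and the 6 largest from or to background. Both sets were taken only from called genes whose arrays did not overlap between the lines. Named as well are, of the lists described, some of the called members with large changes and some that a list is known for. Members with larger changes than those named were left out in some lists. The 10 genes highest and lowest on array 1 and the 10 exon probesets a direction with the largest relative changes were added. Probesets in genes that were not called, and those of Tcf3, Itgb4 and Col7a1, were picked after their values were seen. Members and lists were chosen with earlier results of these data known. Replicate numbers do not pair the samples: deviations of same-numbered arrays correlated at -0.038, 0.034 and 0.002. No column of values was left out. The alternatives were other gene summaries, filters, scalings, array weights, a muscle covariate, a replicate block and the omission of each array.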

Additional observations from a re-analysis of the deposited data

How the results depend on the processing

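Of 15025 genes, 3710 were called, against 2316 with the muscle level as a covariate and 1847 with array 1 as the only 168FARN array. Leaving out 1 array at a time gave 2799 to 3311 genes, 385 to 522 genes apart from the other lines, 437 to 529 list members and 700 to 927 exon probesets. The 545 list members called fell to 329 with array 1 alone. The 803 exon probesets were 387 by the splicing index, 456 above the 50th percentile, 2518 with no filter, 508 with array 1 alone and 304 by both tests; by both tests 102 were left with array 1 alone and 208 without it. Counts by both tests were chosen after seeing the data. With a replicate block the counts were 3862 genes, 839 exon probesets, 420 genes apart and 571 list members, and the numbers do not pair the samples. Directions turned in Cma1 (0.01) and Mycn (-0.07) with the mean of probesets, in Pvalb (0 with the covariate, -0.25 with array 1 alone), in Myoz1 (0 with array 1 alone), and in the medians of the fast skeletal muscle sarcomere (-0.06 with the covariate, -0.16 with array 1 alone) and of muscle calcium handling (-0.04 with array 1 alone). Medians nearer to 0 turned as well, among them slow and cardiac muscle (0.28; -0.05 with the covariate, -0.04 with array 1 alone), pericytes (0.03; -0.34 without array 1), B cells (0.14; -0.12 without array 1), interferon-gamma genes (0.09; -0.06 with array 1 alone) and tight junctions (0.06; -0.08 with the covariate or array 1 alone). The cause was not tested. Among the list counts, G1 and S phase genes rose from 11 lower to 18 with arrays centred or quantile normalized.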
